A study of Mus musculus with 12 samples.

Results

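The 78 mitochondrial ribosomal protein genes of the mouse were examined in LSKs (Lin- Sca-1+ c-Kit+ cells, the bone marrow fraction that holds hematopoietic stem and early progenitor cells). The genes were taken by name, as all protein-coding genes whose symbol starts with Mrpl or Mrps followed by a digit, and they are 78 of the 53465 genes in the deposited table. LSKs came from the bone marrow of Tespa1+/+ littermates and Tespa1-/- mice, male and 8 to 10 weeks old, which carried a germline deletion of Tespa1 present in all cells of the mouse and backcrossed to C57BL/6 for more than 6 generations. Mice were untreated or were studied on day 9 after a single injection of 5-fluorouracil (5-FU), an antimetabolite that kills dividing cells and brings stem cells into cycle. Each of the 4 groups (Tespa1+/+ untreated, Tespa1-/- untreated, Tespa1+/+ after 5-FU, Tespa1-/- after 5-FU) had 3 poly-A RNA-seq libraries. The labels number the replicates but do not say that each came from its own mouse, so p-values measure the spread between these libraries.

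Mitochondria translate the messages of their own small genome on a ribosome that is separate from the one in the cytosol. Its ribosomal RNAs come from mitochondrial DNA, but all of its proteins are encoded in the nucleus, made in the cytosol and imported. Some descend from proteins of the bacterial ribosome and others were added in the mitochondrial lineage. The proteins that this ribosome makes are all parts of the respiratory chain and the ATP synthase. Hematopoietic stem cells at rest are known to depend little on respiration, and they raise it when they divide and differentiate. By role, 51 of the 78 genes encode proteins of the large subunit, 29 with a bacterial counterpart and 22 without, and 26 encode proteins of the small subunit, 16 with a counterpart and 10 without. The product of the remaining gene, Mrps36, is now regarded as a part of the alpha-ketoglutarate dehydrogenase complex and not of the ribosome core.

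Library totals ran from 22118154 to 28275079 counts. Tespa1 itself was lower in Tespa1-/- LSKs but still detected, with means of 46.5 and 34.8 CPM (read counts scaled to one common library size, after TMM normalization) in untreated Tespa1+/+ and Tespa1-/- LSKs and 53.2 and 19.3 CPM after 5-FU. The deleted exons are not given in the sources used here, so these levels do not show whether the remaining reads lie outside the deletion, and they are no check of it. The 3 Tespa1-/- libraries after 5-FU stood apart in marker genes. The summed level of 10 LSK markers was 800 to 868 CPM there, against 1330 to 1370 CPM in Tespa1+/+ LSKs after 5-FU, 1330 to 1380 in untreated Tespa1-/- and 1600 to 1670 in untreated Tespa1+/+ LSKs. The sum of 10 neutrophil markers was 1020 to 1060 CPM in those libraries and 19.4 to 42.7 CPM in the other 9, and that of 10 erythroid markers was 763 to 807 CPM against 146 to 268 CPM. The sum of 12 genes of the G2 and M phases was 4050 to 4130 CPM against 2780 to 2940 CPM in the other libraries. Sums weigh abundant genes most, and single LSK markers moved both ways with treatment. After 5-FU, 8 of the 10 were fitted higher in Tespa1+/+ LSKs, with 2 called higher and 2 lower. In Tespa1-/- LSKs 3 were called higher and 3 lower.

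Every one of the 78 genes was detected in every library, the lowest count being 7, and all of them entered every test. Their mean level over the 12 libraries ran from 1.59 to 78.3 CPM with a median of 23.8 CPM, and together they took 0.18 to 0.226% of the counts of a library. Within a group the libraries differed by a median coefficient of variation of 12.1%, from 3.4% for Mrps25 to 81.7% for Mrpl53.

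Compared per length (RPKM, CPM divided by the kilobases of annotated exon), the levels of the genes spanned 33.6-fold around a median of 8.91 RPKM. The 4 genes with the highest level were Mrpl18 with 52.4 RPKM, Mrpl12 with 51.1, Mrpl52 with 41.0 and Mrpl54 with 36.2, all of the large subunit. Mrpl18 encodes the counterpart of bacterial L18, which binds 5S rRNA in bacteria. Mrpl12 encodes the counterpart of L7/L12, the stalk protein that recruits translation factors. The 4 lowest were Mrpl48 with 1.56 RPKM, Mrpl53 with 2.01, Mrps17 with 2.51 and Mrpl47 with 2.62. In the order of the 78 levels, each of the 77 pairs of neighbours overlapped in the ranges of their libraries. The order also depends on the length used. The lengths behind the deposited FPKM values differ from the exonic lengths by a ratio that varies from gene to gene. That ratio has a median of 1.36 and a maximum of 2.73, and for Mrpl16 the lengths are 1122 and 3169 bases. The positions of 72 of the 78 genes match GENCODE M21, from which the exonic lengths were taken, and that of Mrpl16 does not. Spearman's rho between the orders was 0.913 over the 78 genes, but single genes moved far. Mrpl16 moved from rank 43 to 6, Mrps6 from 44 to 19, Mrpl55 from 39 to 63 and Mrpl2 from 18 to 39, and among the highest Mrpl52 moved from rank 3 to 9.

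**Figure D1:**
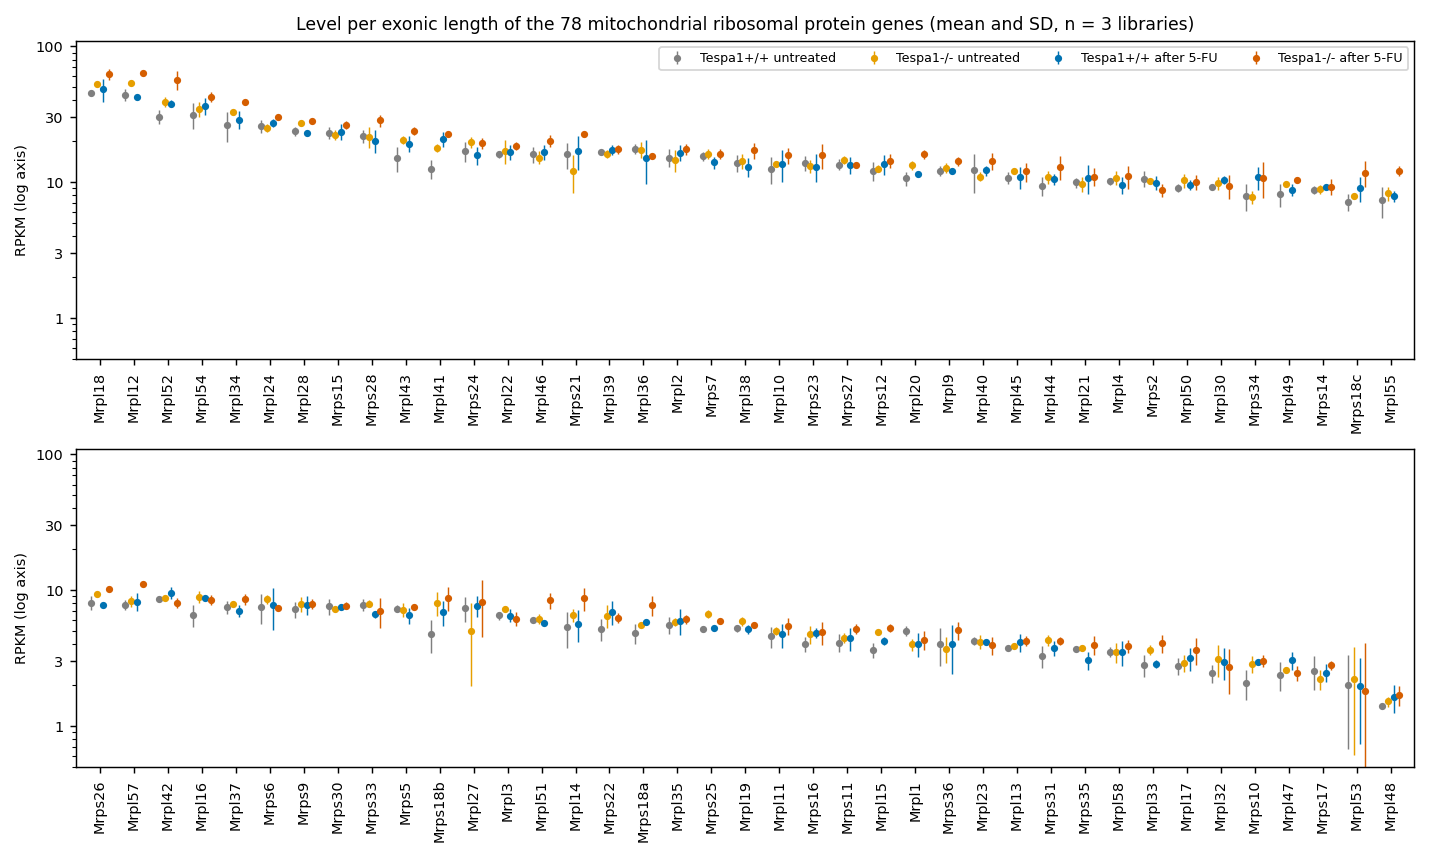
Mean level per exonic length (RPKM, log axis) of each of the 78 genes in the 4 groups, in falling order, with the SD of 3 libraries as bars. Levels run from 52.4 RPKM for Mrpl18 to 1.56 RPKM for Mrpl48, and the bars are widest for Mrpl53, a gene of few counts.

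Exons shared with other genes limit some of these values. Of the 78 genes, 33 share exonic bases with another annotated gene, and in 17 of them the shared part exceeds 10% of the exonic length. Of Mrpl53, 88.0% is shared with Gm42688 on the same strand. Mrps25 shares 69.8% with Nr2c2, Mrps34 shares 63.4% with Mapk8ip3 and Mrpl43 shares 33.4% with Twnk, each on the opposite strand. Mrps34 also shares 37.0% with Nme3 on its own strand. The libraries keep strand, but whether the counting used it is not given in the sources used here, so the levels of these genes are uncertain.

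Promoters of 4 genes are shown because these genes carry the results described below. Mrpl12, Mrpl52 and Mrpl51 had the 3 largest called differences between genotypes after 5-FU, and Mrps21 the largest between treatments in Tespa1-/- LSKs. Each is the RefSeq window of 250 bases before to 50 bases after the start of the gene (GRCm38.p6), written 5′ to 3′ on the strand of the gene. Capitals mark CCGGAAG or its reverse complement CTTCCGG, the core bound by ETS factors such as the GABP complex, a known regulator of nuclear genes for mitochondrial proteins.
Mrpl12, chr11:120484387-120484686, plus strand: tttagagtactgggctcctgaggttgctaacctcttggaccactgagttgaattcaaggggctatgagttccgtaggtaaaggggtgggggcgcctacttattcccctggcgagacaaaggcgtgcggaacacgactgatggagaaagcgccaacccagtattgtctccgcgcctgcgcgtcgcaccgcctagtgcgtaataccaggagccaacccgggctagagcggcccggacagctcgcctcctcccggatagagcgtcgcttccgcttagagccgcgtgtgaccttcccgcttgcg
Mrpl52, chr14:54426659-54426958, plus strand: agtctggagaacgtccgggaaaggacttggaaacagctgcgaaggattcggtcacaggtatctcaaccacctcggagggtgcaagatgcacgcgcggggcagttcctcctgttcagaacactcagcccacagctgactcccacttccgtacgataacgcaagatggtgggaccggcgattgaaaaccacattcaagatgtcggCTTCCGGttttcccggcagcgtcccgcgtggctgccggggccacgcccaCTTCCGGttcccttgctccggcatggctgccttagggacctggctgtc
Mrpl51, chr6:125191950-125192249, plus strand: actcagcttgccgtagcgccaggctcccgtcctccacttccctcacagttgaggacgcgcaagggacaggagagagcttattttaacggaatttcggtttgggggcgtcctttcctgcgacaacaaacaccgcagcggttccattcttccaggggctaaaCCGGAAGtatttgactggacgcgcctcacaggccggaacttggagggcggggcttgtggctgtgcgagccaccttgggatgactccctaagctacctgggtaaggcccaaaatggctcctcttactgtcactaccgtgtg
Mrps21, chr3:95871465-95871764, minus strand: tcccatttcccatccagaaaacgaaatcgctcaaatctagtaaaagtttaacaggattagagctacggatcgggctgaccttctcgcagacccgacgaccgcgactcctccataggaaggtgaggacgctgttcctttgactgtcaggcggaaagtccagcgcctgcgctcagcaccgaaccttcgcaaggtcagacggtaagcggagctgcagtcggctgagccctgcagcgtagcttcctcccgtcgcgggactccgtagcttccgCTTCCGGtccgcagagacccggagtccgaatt

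RefSeq windows, 75 in all, were at hand for 69 of the 78 genes. A gene was counted once for a motif found in any of its windows. Both strands were searched for 5 motifs, of which the ETS core ends in the AAG with which the YY1 motif begins, so that these can share bases. The ETS core was found for 26 of 69 genes, 37.7%, against 12.9% of 17492 protein-coding genes and 39.1% of 64 cytosolic ribosomal protein genes. AAGATGGCG, bound by YY1, was in 11.6% against 2.14%, and the palindrome bound by NRF1 was in 4.35% against 1.47%. The E-box CACGTG, bound by Myc and Max, was in 7.25% against 8.91%, and CCAAT, bound by NF-Y, in 39.1% against 42.3%. Restricted to the 150 bases before the start, the ETS core was found for 21.7% of the genes against 8.35%. Of the 10 genes that passed the test in any comparison below, 6 had the ETS core, Mrpl52 at 2 places, while the windows of Mrpl12, Mrpl20, Mrpl24 and Mrpl55 did not. These letter matches were counted as descriptions and were not tested.

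In untreated LSKs, the comparison of genotypes asks whether loss of Tespa1 changes these genes in the steady state. None of the 78 genes passed an adjusted p below 0.05 in edgeR's quasi-likelihood test, where 1.64% of 17055 genes were called higher and 3.59% lower in Tespa1-/- LSKs, 5.23% in all. Without adjustment, 12 had a p below 0.05 and were higher and 1 was lower (7.97% and 10.5% of all genes), and DESeq2 called 4 higher (Mrpl12, Mrpl15, Mrps18b and Mrps25) where it called 3.1% of all genes higher. The fitted log2 difference was above 0 for 57 of the 78, against 51.2% of all genes, with a median of 0.11 against 0.01. In 14 genes every Tespa1-/- library lay above every Tespa1+/+ library and in 1, Mrpl1, every one lay below, where 12.3% and 13.4% of all genes did so. At the study's thresholds (fold over 1.5 and unadjusted p below 0.05) 1 gene was higher and none lower, against 3.54% and 3.2% of all genes.

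None of the genes chosen for their roles passed in untreated LSKs. Mrps18b, a small subunit protein of the S18 family, was 8.92, 7.91 and 13 CPM in untreated Tespa1+/+ LSKs and 18, 13.2 and 19.5 CPM in Tespa1-/- LSKs. The groups did not overlap, and the log2 difference was 0.77 (SE 0.23, adjusted p = 0.108). It shares 30.5% of its exonic bases with the antisense gene Gm16279. Mrpl41, of the large subunit, was 12.3, 12.1 and 9.06 CPM in Tespa1+/+ and 15.2, 17 and 15.1 CPM in Tespa1-/- LSKs, again without overlap (log2 difference 0.50, SE 0.16, adjusted p = 0.143). Mrpl58, a peptidyl-tRNA hydrolase that releases peptides from stalled ribosomes, had means of 11.7 ± 0.909 and 11.7 ± 1.96 CPM (SD, n = 3). Mrps30, once named a cell death protein and now placed in the large subunit, had means of 50.8 ± 7.02 and 48.6 ± 2.65 CPM.

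After 5-FU, the same comparison asks whether the genotypes differ in the recovering marrow. Here 5 of the 78 genes were called higher in Tespa1-/- LSKs and none lower, where 7.34% of 17239 genes were called higher and 5.78% lower, 13.1% in all. That is 4 of the 51 large subunit genes (Mrpl12, Mrpl20, Mrpl51 and Mrpl52) and 1 of the 26 small subunit genes (Mrps26), a share near the background in this fit. DESeq2 called 9 of the 78 higher and 9.44% of all genes, and edgeR with all 12 libraries in one fit called 9 and 7.97%. With the replicate number as a further factor (the replicate block) edgeR called 2 and 5.63%. The fitted difference was above 0 for 66 of the 78 genes against 49.1% of all genes, and its median was 0.17 against -0.01 on the log2 scale. All 3 Tespa1-/- libraries lay above all 3 Tespa1+/+ libraries in 20 genes and below them in none, where 17.5% and 15.5% of all genes did so. With no adjustment of p, 18 genes were below 0.05 and higher and none was lower, against 14.2% and 12.6% of all genes. The study's thresholds were met by 3 genes upward and none downward, against 5.79% and 5.94% of all genes.

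Mrpl12 (chr11:120484613-120489065, plus strand), whose product also binds the mitochondrial RNA polymerase, had the smallest p of the 78. Its level was 65.8, 67.2 and 61.9 CPM in Tespa1+/+ and 95.1, 98.5 and 100 CPM in Tespa1-/- LSKs. No library came near the other group, and the log2 difference was 0.59 (SE 0.07, adjusted p = 0.000756). It was called in all 6 fits that left out 1 library, with adjusted p from 0.00314 to 0.0059, and in each of 10 other settings, with adjusted p from 2.43e-10 to 0.00732. In untreated LSKs the same gene had 70.1, 71.9 and 59.8 CPM in Tespa1+/+ and 86.4, 80.0 and 82.5 CPM in Tespa1-/-, also without overlap (log2 difference 0.30, SE 0.09, adjusted p = 0.0903). The antisense gene Gm16755 covers 13.1% of its exonic bases.

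Mrpl52 (chr14:54426909-54429756, plus strand) encodes a large subunit protein with no bacterial counterpart. It had 43.9, 39.1 and 42.9 CPM in Tespa1+/+ and 51.2, 66.8 and 70.1 CPM in Tespa1-/- LSKs, a log2 difference of 0.57 (SE 0.13, adjusted p = 0.0167). The groups were apart, but the Tespa1-/- libraries were spread widely. Mrpl51 (chr6:125191801-125196269, plus strand), also confined to the mitochondrial ribosome, had 23.4, 22.4 and 23.8 CPM against 37.5, 35.6 and 29.0 CPM (log2 difference 0.55, SE 0.13, adjusted p = 0.0218). Its level in untreated LSKs was 24.5, 24.5 and 24.3 CPM in Tespa1+/+ and 25.1, 27.2 and 22.7 CPM in Tespa1-/-, so that the 3 Tespa1-/- libraries after 5-FU were the only high ones of the 12. Mrpl20, the counterpart of bacterial L20, had 19.1, 17.9 and 19.7 CPM against 24.5, 27.7 and 28.1 CPM (log2 difference 0.50, SE 0.13, adjusted p = 0.031). Mrps26, of the small subunit, had 33.4, 35.1 and 33.0 CPM against 44.4, 45.6 and 45.1 CPM (log2 difference 0.41, SE 0.09, adjusted p = 0.0192). Both were clear of overlap, Mrps26 with the tightest Tespa1-/- group of the 5 (SD 0.617 CPM). Other than that of Mrpl12, these calls were not kept in every fit that left out 1 library. That of Mrpl52 was lost in 3 of 6 such fits, and those of Mrpl20, Mrpl51 and Mrps26 in 5 of 6. Of 10 other settings, 2 ended the call of Mrpl20 and 1 each those of Mrpl51, Mrpl52 and Mrps26. Leaving out 1 library left 1 to 3 of the 78 genes called, the fewest without the Tespa1-/- library 2, where only Mrpl12 remained. Of all genes, 4.63 to 5.59% were called higher in these fits, the fewest also without that library, against 7.34% with every library kept.

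**Figure D2:**
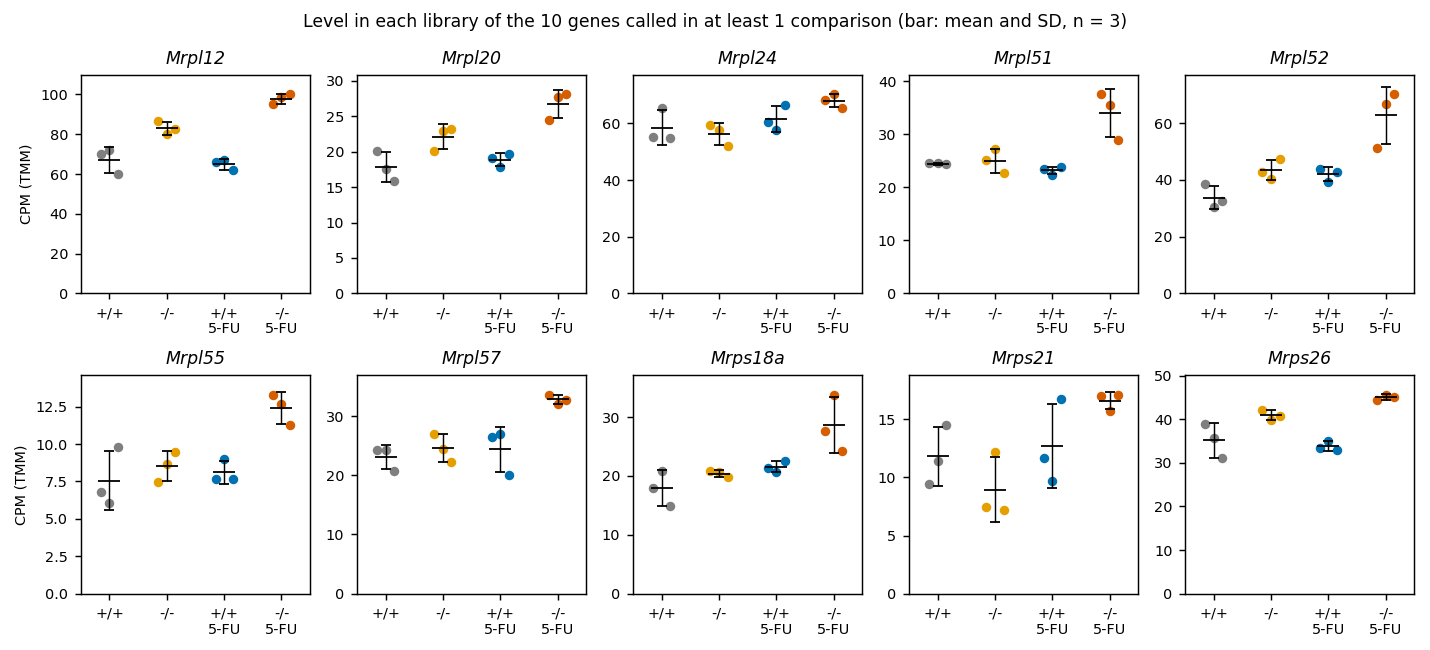
Level (CPM after TMM scaling, linear axis from 0) in each library of the 10 genes that passed an adjusted p below 0.05 in at least 1 comparison, with the mean and SD of 3 libraries. In each panel the Tespa1-/- group after 5-FU has the highest mean, and for Mrpl12, Mrpl52 and Mrps26 the untreated Tespa1-/- libraries also lie above those of Tespa1+/+.

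The gene with the highest level per length and the other genes chosen for their roles did not pass after 5-FU. Mrpl18 had 52.7, 72.8 and 76.9 CPM in Tespa1+/+ and 97.1, 83 and 82.8 CPM in Tespa1-/- LSKs, without overlap, at a log2 difference of 0.37 (SE 0.14, adjusted p = 0.114). DESeq2 called it, with an adjusted p of 0.0424, and so did edgeR with all 12 libraries in one fit. Mrpl11, at the base of the stalk that carries Mrpl12, differed by 0.19 (SE 0.20), Mrpl54 by 0.22 (SE 0.13), Mrps5 by 0.21 (SE 0.11) and Mrps12, the counterpart of the S12 protein that guards decoding accuracy, by 0.08 (SE 0.18). Mrps6 differed by -0.09 (SE 0.26), Mrpl41 by 0.11 (SE 0.15), Mrps30 by 0.04 (SE 0.09) and Mrpl58 by 0.14 (SE 0.20). The S18 family gave 0.40 for Mrps18a (SE 0.15), 0.33 for Mrps18b (SE 0.21) and 0.37 for Mrps18c (SE 0.23), with adjusted p of 0.107, 0.361 and 0.354. Mrps36, outside the ribosome core, differed by 0.34 (SE 0.32).

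By role, the log2 medians between genotypes after 5-FU were 0.15 for large subunit genes with a bacterial counterpart, 0.23 for those without, and 0.17 for small subunit genes of either kind. Their called shares were 2 of 29, 2 of 22, 0 of 16 and 1 of 10. The medians of untreated LSKs were 0.12, 0.13, 0.06 and 0.16 in the same order. Without the 17 genes whose exons overlap another gene by over 10%, the median after 5-FU was again 0.17, with 4 of 61 genes called.

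**Figure D3:**
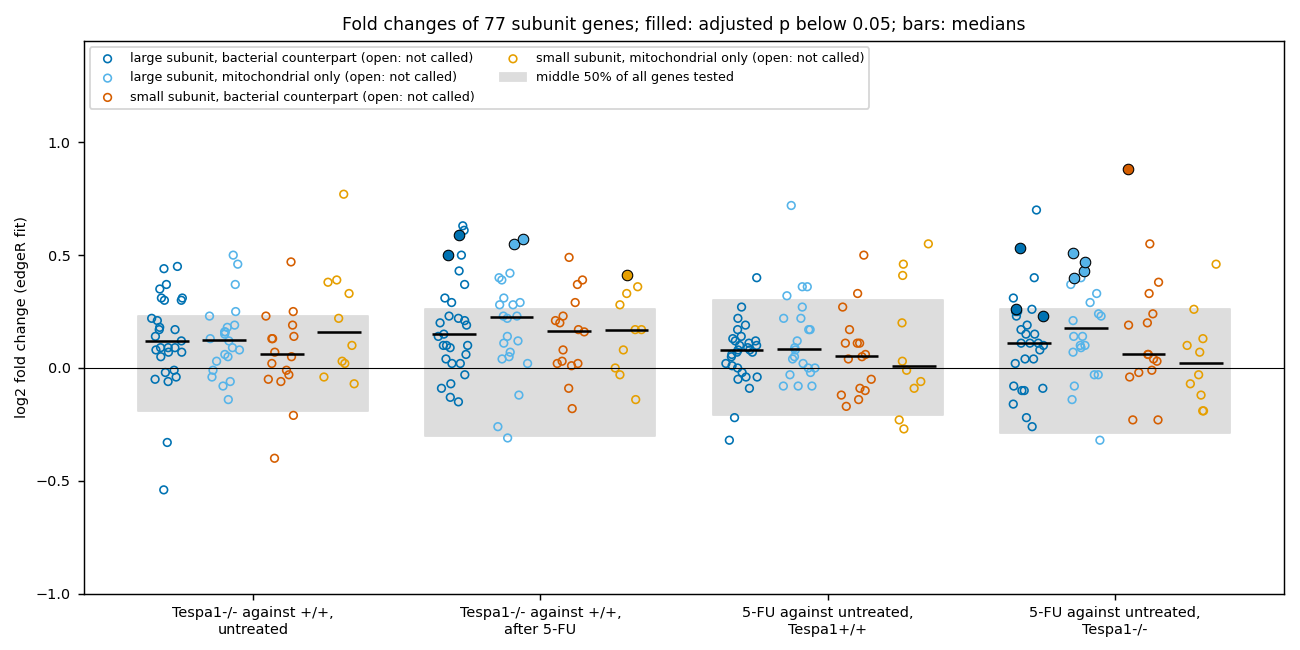
Fitted log2 fold change of 77 subunit genes in the 4 comparisons, by subunit and by whether a bacterial counterpart exists. Filled points passed an adjusted p below 0.05, black bars are medians, and the grey band holds the middle 50% of all genes tested. The medians of the comparison of genotypes after 5-FU run from 0.15 to 0.23, and all filled points, 5 there and 8 for 5-FU in Tespa1-/- LSKs, are above 0.

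The genotype differences in the untreated and the 5-FU groups come from separate libraries and can be set side by side. Of the 78 genes, 47 had a fitted difference above 0 in both, as did 29.2% of the 16341 genes tested in both. In 9 genes the Tespa1-/- libraries lay above the Tespa1+/+ libraries in both, where 3.85% of all genes did so. The interaction term, which tests whether the difference after 5-FU departs from that in untreated LSKs, was called for none of the 78, where 3.02% of 18696 genes were called higher and 1.99% lower, 5.01% in all. Its unadjusted p was below 0.05 for 3 genes upward and 1 downward (9.79% and 8.9% of all genes), and DESeq2 called none. It met the study's thresholds upward in 1 gene and downward in none, against 4.16% and 6.22%. The term was above 0 for 49 of the 78 genes against 48.1% of all genes, with a median of 0.08 against -0.02. For Mrpl12 the term was 0.29 (SE 0.11, adjusted p = 0.164), for Mrpl51 0.52 (SE 0.16, adjusted p = 0.0928) and for Mrps21 0.79 (SE 0.35, adjusted p = 0.243).

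**Figure D4:**
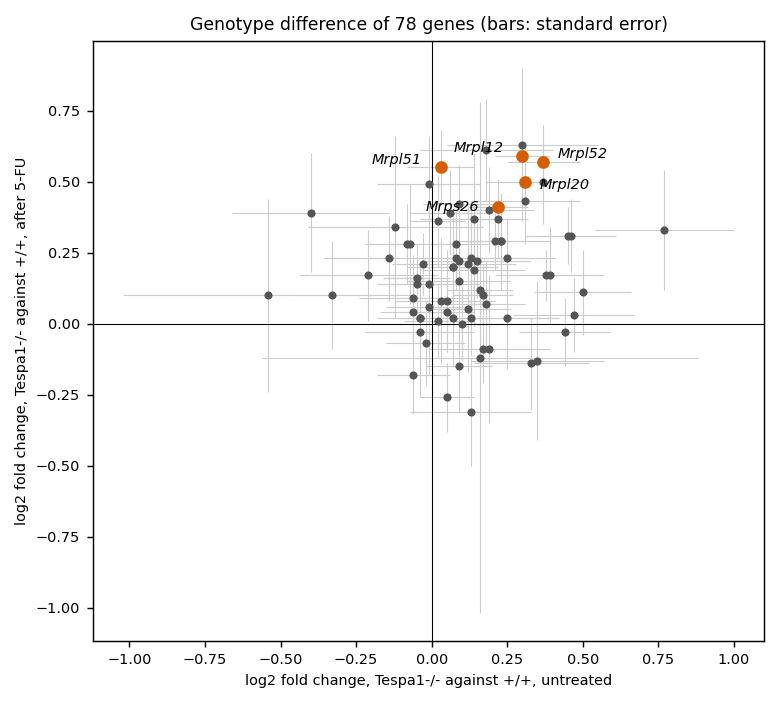
Log2 fold change of Tespa1-/- against Tespa1+/+ for each of the 78 genes, in untreated LSKs (x axis) and after 5-FU (y axis), with standard errors. The 5 genes called after 5-FU are labelled, lie between 0.41 and 0.59 on the y axis, and 4 of them lie to the right of 0.2 on the x axis, while Mrpl51 is at 0.03.

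In Tespa1+/+ LSKs, the comparison of day 9 after 5-FU with untreated cells called none of the 78 genes, where 3.77% of 17002 genes were called higher and 4.18% lower, 7.95% in all. Before adjustment 4 were higher and none lower at p below 0.05 (10.6% and 10.8% of all genes), and DESeq2 called 1, Mrpl41, where it called 5.9% of all genes higher. Mrpl41 alone was also called with RLE factors, upper-quartile factors, library totals, at least 10 counts in every library and all 12 libraries in one fit. In these fits 3.82 to 5.51% of all genes were called higher. The study's thresholds were met by 1 gene upward and none downward, against 6.33% and 3.54% of all genes. The groups were apart upward in 5 genes and downward in 2, against 14.0% and 14.5%. The fitted difference was above 0 for 53 of the 78 genes against 51.7% of all genes, with a median of 0.07 against 0.01. Mrpl41 had 12.3, 12.1 and 9.06 CPM in untreated and 15.7, 19.6 and 20.1 CPM in treated cells, without overlap (log2 difference 0.72, SE 0.19, adjusted p = 0.0501). Mrpl12 had a log2 difference of -0.05 (SE 0.10) and Mrpl52 one of 0.32 (SE 0.12, adjusted p = 0.166).

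In Tespa1-/- LSKs, 8 of the 78 genes were called higher after 5-FU than in untreated cells and none lower, where 10.7% of 17228 genes were called higher and 8.64% lower, 19.4% in all. The share of the 78 genes was near the background in this fit, but with upper-quartile factors 3 were higher against 8.9% of all genes. Before adjustment 18 were higher and 2 lower at p below 0.05 (17% and 15.4% of all genes), and the study's thresholds were met by 1 gene upward and none downward (7.78% and 6.58%). The fitted difference was above 0 for 56 of the 78 against 49.1% of all genes, with a median of 0.11 against -0.01. The groups were apart upward in 20 genes and downward in 5, where 20.4% and 18.1% of all genes were. This comparison shares its treated libraries with the comparison of genotypes after 5-FU, so that Mrpl12, Mrpl51 and Mrpl52, called in both, rest in part on the same 3 libraries.

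Mrps21 (chr3:95862634-95871519, minus strand), the small subunit counterpart of bacterial S21, had the largest of the 8 differences. It was 7.42, 12.2 and 7.20 CPM in untreated and 17, 15.7 and 17.1 CPM in treated Tespa1-/- LSKs (log2 difference 0.88, SE 0.21, adjusted p = 0.0198). The untreated library 2 was the high one of its group, and Tespa1+/+ libraries ranged from 9.45 to 14.5 CPM untreated and from 9.67 to 16.7 CPM after 5-FU. Mrpl55, the counterpart of bacterial L31, went from 7.46, 8.65 and 9.47 CPM to 13.3, 12.7 and 11.3 CPM (log2 difference 0.53, SE 0.16, adjusted p = 0.0496). Mrps18a, an S18 relative found in the large subunit, went from 20.8, 20.6 and 19.8 CPM to 27.7, 33.8 and 24.3 CPM (log2 difference 0.47, SE 0.13, adjusted p = 0.0373). In each of these the groups did not overlap. The call of Mrps21 was lost in 4 of the 6 fits that left out 1 library (adjusted p up to 0.0775) and in none of 10 other settings. The call of Mrpl55 was lost in all 6 fits that left out 1 library and in 7 of 10 other settings (adjusted p up to 0.118), and that of Mrps18a in 5 of 6 and 4 of 10 (adjusted p up to 0.065 in the other settings).

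Mrpl52 had a log2 difference of 0.51 (SE 0.12, adjusted p = 0.0198), a call lost in 4 of the 6 fits that left out 1 library (adjusted p up to 0.0847), and Mrpl51 one of 0.43 (SE 0.12, adjusted p = 0.0394). Mrpl57 went from 27.0, 24.4 and 22.3 CPM to 33.6, 32.0 and 32.7 CPM, a log2 difference of 0.40 (SE 0.10, adjusted p = 0.0261). Mrpl12 differed by 0.23 (SE 0.06, adjusted p = 0.0278). Mrpl24 was 59.5, 57.5 and 51.9 CPM before and 68.2, 70.2 and 65.4 CPM after, a log2 difference of 0.26 (SE 0.08, adjusted p = 0.0432), and 26.3% of its exonic bases are shared with Rrnad1. Leaving out 1 library ended the calls of Mrpl12 and Mrpl57 in 4 of 6 fits, of Mrpl51 in 5 and of Mrpl24 in all 6. Of 10 other settings, 6 ended the calls of Mrpl12 and Mrpl24, 2 that of Mrpl51 and 1 that of Mrpl57. With 1 library left out, 1 to 3 of the 78 genes were called, in each case a smaller share than over all genes, and only 1 without the untreated Tespa1-/- library 2 (Mrps21) or library 3 (Mrpl52). In these fits 7.38 to 9.0% of all genes were called higher, 7.38% and 7.46% without those libraries.

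Summed over the 78 genes, the level was 1880, 1830 and 1830 CPM in untreated Tespa1+/+ LSKs and 2030, 1980 and 2030 CPM in untreated Tespa1-/- LSKs. After 5-FU it was 1980, 1900 and 1920 CPM in Tespa1+/+ and 2240, 2270 and 2150 CPM in Tespa1-/- LSKs. The Tespa1-/- libraries lay above the Tespa1+/+ libraries in both treatments, by ratios of the means of 1.09 and 1.15. The sum of the small subunit genes was 563 to 594 CPM and 598 to 648 CPM in the untreated groups and 583 to 618 CPM and 644 to 679 CPM after 5-FU. In bulk RNA a change in the make-up of the sorted cells and a change in the RNA of each cell cannot be told apart.

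Several marker lists also stood apart in the Tespa1-/- libraries after 5-FU. Between genotypes after 5-FU, 9 of 10 neutrophil markers, 10 of 10 erythroid markers and 11 of 12 G2/M genes were called higher in Tespa1-/- LSKs, and 7 of 10 LSK markers lower. Ly6g was at 0 in every untreated library. The largest called differences of these lists were those of Fcnb (35.7 CPM in Tespa1-/- LSKs after 5-FU, 0 in Tespa1+/+), Slc4a1 (93.7 and 0.288 CPM), Plk1 (68.0 and 35.9 CPM) and Ly6a, which encodes Sca-1 (15.3 and 36 CPM). The abundant markers S100a9, Mki67 and Flt3 had 316, 2070 and 170 CPM in Tespa1-/- and 1.29, 1430 and 314 CPM in Tespa1+/+ LSKs. Among 8 B cell markers 2 were called higher, among 6 megakaryocyte markers 2, and among 6 T cell markers tested 1 (Cd3e, at a mean of 0.919 CPM). In untreated LSKs the G2/M sums of the genotypes overlapped (2880 to 2940 CPM in Tespa1+/+ and 2840 to 2900 CPM in Tespa1-/-), as did the erythroid sums (146 to 171 and 164 to 174 CPM). The neutrophil sums were 19.4 to 33.2 and 34.1 to 35.8 CPM. The B cell sums (64.1 to 77.1 and 42.2 to 48.2 CPM) and the megakaryocyte sums (44.2 to 50.8 and 74.9 to 79.9 CPM) did not overlap. The T cell sums did (34.5 to 40.0 and 35.8 to 39.7 CPM). Of the other lists, 3 of 10 LSK markers and 3 of 7 B cell markers tested were lower, and 1 of 9 erythroid and 1 of 5 megakaryocyte markers tested was higher. Between treatments, 7 of 7 B cell and 4 of 5 megakaryocyte markers tested were called higher after 5-FU in Tespa1+/+ LSKs. In Tespa1-/- LSKs these were 7 of 8 and 5 of 5, and none was called lower in either genotype. The part of these markers in the differences of the ribosomal protein genes was not tested.

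**Figure D5:**
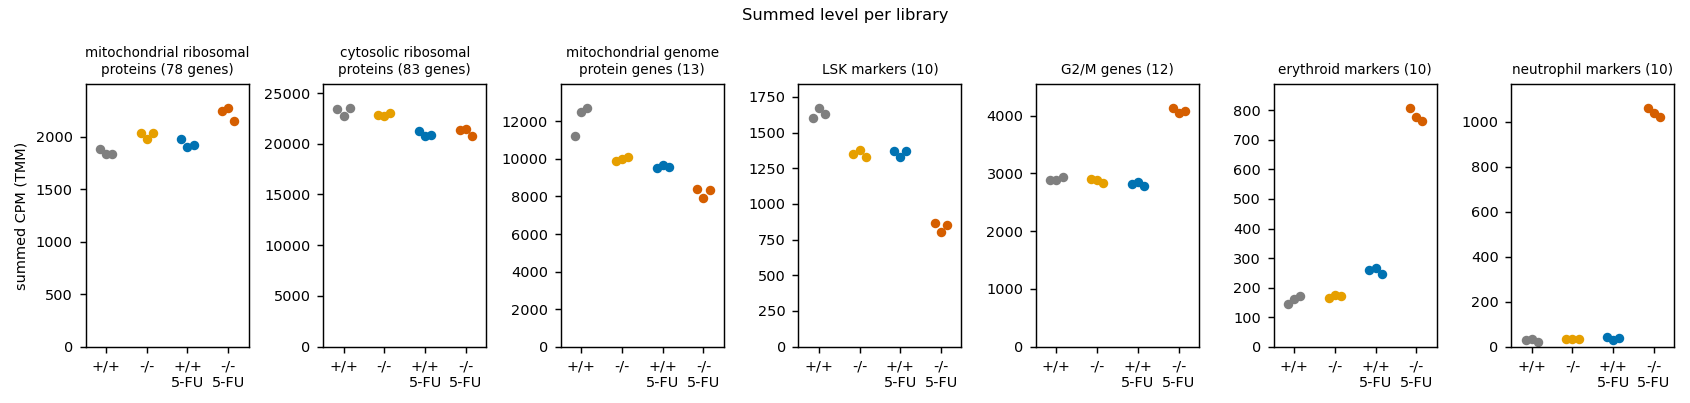
Summed level (CPM after TMM scaling, linear axes from 0) in each of the 12 libraries of the 78 mitochondrial ribosomal protein genes, of cytosolic ribosomal protein genes, of the protein genes of the mitochondrial genome and of 4 marker lists. The first panel is highest in Tespa1-/- LSKs after 5-FU (2150 to 2270 CPM), where the mitochondrial genome genes are lowest (7910 to 8380 CPM) and the neutrophil, erythroid and G2/M sums are highest.

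The genes of the mitochondrial genome, whose messages this ribosome translates, had lower summed levels in Tespa1-/- LSKs and after 5-FU. Their 13 protein genes summed to 11200 to 12700 CPM in untreated Tespa1+/+ and 9870 to 10100 CPM in untreated Tespa1-/- LSKs. After 5-FU the sums were 9500 to 9690 and 7910 to 8380 CPM. Between genotypes 8 of the 13 were called lower in untreated LSKs and 8 after 5-FU, and none higher. The fitted difference of mt-Nd6 after 5-FU was 0.02 (109 and 110 CPM). The largest called falls were those of mt-Nd2 in untreated LSKs (log2 difference -0.46, adjusted p = 0.00351) and of mt-Atp6 after 5-FU (-0.34, adjusted p = 0.00018), which encode parts of complex I and of the ATP synthase. After 5-FU, 11 of 13 were lower in Tespa1+/+ and 12 of 13 in Tespa1-/- LSKs, with the largest falls for mt-Nd3 (-0.71, adjusted p = 0.0121, and -0.59, adjusted p = 0.00107). Mitochondrial messages carry short poly-A tails, and their yield in poly-A libraries was not tested.

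The ribosome of the cytosol gave calls of both signs between genotypes. Of 81 cytosolic ribosomal protein genes tested, 5 were called higher and 5 lower between genotypes after 5-FU, with a log2 median of -0.01, and 1 lower (Rpl15) in untreated LSKs. After 5-FU 11 were lower in Tespa1+/+ and 24 in Tespa1-/- LSKs and none higher, with medians of -0.14 and -0.15. The mitochondrial ribosomal protein genes had medians of 0.07 and 0.11 in these comparisons.

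Genes that work with the mitochondrial ribosome were taken from lists compiled for this purpose. Of 5 ribosomal subunits under other names, Gadd45gip1 was higher in untreated Tespa1-/- LSKs (41.6 and 53.6 CPM, log2 difference 0.37, adjusted p = 0.0375), and Dap3, a GTP-binding protein of the small subunit, did not pass in any comparison. Of 24 assembly factors, 1 was higher between genotypes after 5-FU, Rbfa, which matures the small subunit (65.3 and 85.0 CPM, log2 difference 0.38, adjusted p = 0.0344). None of 15 translation factors was called in any of the 5 tests by edgeR, where at most 3 had an unadjusted p below 0.05 upward (untreated LSKs, between genotypes). Of 20 genes for charging mitochondrial tRNAs, Pars2, the prolyl-tRNA synthetase, was higher after 5-FU in Tespa1-/- than in Tespa1+/+ LSKs (log2 difference 0.80, adjusted p = 0.0443) and than in untreated Tespa1-/- LSKs (1.1, adjusted p = 0.00564), and Iars2 was the other called in the latter comparison.

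Of 12 genes for mitochondrial DNA and its transcription, Polg, the catalytic subunit of the mitochondrial DNA polymerase, was called in 3 tests. Its means were 47.7, 45.4, 46.9 and 70.2 CPM in the order untreated Tespa1+/+, untreated Tespa1-/-, Tespa1+/+ after 5-FU and Tespa1-/- after 5-FU. The log2 difference between genotypes after 5-FU was 0.58 (adjusted p = 0.00198), and its interaction term was 0.65 (adjusted p = 0.00857). Mterf1a fell in Tespa1-/- LSKs after 5-FU (log2 difference -1.13, adjusted p = 0.0298). Among 11 regulators, Myc was higher in untreated Tespa1-/- LSKs (142 and 193 CPM, log2 difference 0.44, adjusted p = 0.0363), but its means after 5-FU were 140 and 139 CPM, and it fell after 5-FU in Tespa1-/- LSKs (-0.49, adjusted p = 0.00275). Gabpb2, a subunit of the GABP complex that binds the ETS core, was higher in Tespa1-/- LSKs both untreated (121 and 149 CPM, log2 difference 0.30, adjusted p = 0.0481) and after 5-FU (124 and 164 CPM, log2 difference 0.40, adjusted p = 0.00823). Yy1 fell after 5-FU in Tespa1+/+ (-0.28, adjusted p = 0.0172) and Tespa1-/- LSKs (-0.28, adjusted p = 0.00253). Gabpb1, another subunit, fell after 5-FU in Tespa1+/+ (-0.38, adjusted p = 0.0226) and Tespa1-/- LSKs (-0.42, adjusted p = 0.0165). Gabpa, which carries the DNA-binding domain, had means of 98.0 to 102 CPM over the 4 groups.

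The 78 genes did not move as a tight unit from library to library. Over the 3003 pairs of genes the median Pearson r across the 12 libraries was 0.193, and 0.00828 after the group means were removed, as a description of points that share libraries and depth. The genes outside the 78 whose pattern was most like the mean of the 78 were Gm12481 (r = 0.985 over 12 libraries, the highest of 9364 genes compared), Hist1h4b (0.965), Hist1h2ak (0.957), Pgd (0.956) and Hist1h4m (0.95). Hist1h4b, Hist1h2ak and Hist1h4m are replication-dependent histone genes, whose yield in poly-A libraries was not tested. Pgd encodes an enzyme of the pentose phosphate pathway. Pgd averaged 64.0 ± 5.6, 79.6 ± 3.62, 73.6 ± 2.97 and 123 ± 7.73 CPM (SD, n = 3) in untreated Tespa1+/+, untreated Tespa1-/-, treated Tespa1+/+ and treated Tespa1-/- LSKs.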

How the data were processed

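Poly-A RNA from sorted LSKs was sequenced in pairs with a stranded kit. Per the labels' processing notes the submitters used CASAVA 1.8, HISAT2, StringTie and edgeR with GRCm38; whether strand was used in counting is not given in the sources used here. The authors deposited raw read counts for 53465 genes and FPKM values made from the same counts, which were used here only to recover the length behind them. The table's columns are named WT, KO, FWT and FKO with a number. The prefix F was read as 5-FU treated, since the labels give no other groups, and no label states it. The 12 libraries were grouped by their labels, and library totals were 22118154 to 28275079 counts.

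Counts were filtered (filterByExpr, minimum count 10), scaled by TMM and tested with the quasi-likelihood test of edgeR 4.0.16 in R 4.3.3. Genotypes were compared within each treatment and treatments within each genotype, on 6 libraries each, and the interaction on 12. P-values were adjusted by Benjamini-Hochberg over all genes tested, and a gene was called at an adjusted p below 0.05. Fold changes are log2 values of the fit, with their standard errors. Scripts were tested on simulated data. CPM values are TMM-scaled, and RPKM values use exonic lengths of GENCODE M21. Promoter windows are RefSeq's (GRCm38.p6). Summaries and plots were made in Python 3.11 (SciPy 1.17.1, pandas 2.3.3, matplotlib 3.10.9, NumPy 2.4.6).

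The genes, lists and naming rule were chosen with earlier results of these data known. Named were the 4 largest rises and falls among called genes in each comparison with no overlap between groups, the 4 highest and 4 lowest levels per length, 13 genes for their roles, the largest called rise and fall of each list of mitochondrial genes, and the 5 genes most alike. The rule asks the same of the other lists. It was followed there only in part (Fcnb, Slc4a1, Plk1, Ly6a and Cd3e between genotypes after 5-FU, Rpl15 in untreated LSKs), and the rest is given as counts. Others, among them Mrps26, Mrpl57, Mrpl24, Mrpl1, Mrpl15, Mrps25, Mrpl16, Mrpl2, mt-Nd6, Dap3, Iars2, Gabpa, S100a9, Mki67, Flt3 and Ly6g, were chosen after their values were seen. Alternatives were DESeq2 1.42.0, other size factors, other filters, all 12 libraries in one fit, the replicate block, a length correction, the study's thresholds and each library left out.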

Additional observations from a re-analysis of the deposited data

Results flagged for a closer look

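Mrpl51 differed in opposite directions after 5-FU in the genotypes. The 3 treated Tespa1+/+ libraries lay below the 3 untreated ones, a difference that did not pass (log2 difference -0.08, SE 0.12, adjusted p = 0.781). The 3 treated Tespa1-/- libraries lay above theirs (0.43, SE 0.12, adjusted p = 0.0394). The difference between these changes was tested as the interaction term, 0.52 (SE 0.16, adjusted p = 0.0928 in edgeR's quasi-likelihood test), which did not pass the threshold.

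Counts were also recorded on pseudogenes named after these genes, which lie outside the 78. Over the 12 libraries the median count was 75 for Mrps36-ps1, 70 for Mrps36-ps2, 196.5 for Mrpl48-ps and 95 for Mrpl23-ps1, while Mrps36-ps3 had 0 counts in every library, below the limit of 3 counts. These medians are 66.2%, 55.9%, 62.3% and 19.2% of those of Mrps36, Mrps36, Mrpl48 and Mrpl23, and how the counting divided reads between near-identical copies was not tested, so the levels of these 3 genes are uncertain.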

How the results depend on the processing

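The medians over the 78 genes stayed above 0 in every alternative run. Between genotypes after 5-FU, 9 were higher with DESeq2 and 9 with all 12 libraries in one fit, 2 with the replicate block, 3 with the block and a length correction and 3 under the study's thresholds. Of all genes, 9.44%, 7.97%, 5.63%, 6.69% and 5.79% were higher under these settings. Mrpl20, Mrpl51 and Mrps26 were not called with the block, nor Mrpl20 and Mrpl52 with the block and the length correction. In untreated LSKs the counts were 4 with DESeq2, 3 with all libraries, 2 with upper-quartile factors, 2 with at least 10 counts in every library, and 1 each with the length correction, with library totals and under the study's thresholds (of all genes 3.1%, 1.83%, 1.88%, 1.99%, 1.51%, 1.65% and 3.54%). For 5-FU in Tespa1+/+ LSKs, Mrpl41 alone was higher with RLE factors, upper-quartile factors, library totals, DESeq2, at least 10 counts or all libraries. The study's thresholds gave 1 gene (over these settings 3.82% to 6.33% of all genes). In Tespa1-/- LSKs the counts were 5 with all libraries, 5 with the length correction, 4 with the replicate block, 3 with upper-quartile factors (and 1 lower, Mrpl3), 3 without a filter, 3 with block and length correction and 1 under the study's thresholds (of all genes 8.39%, 10.3%, 9.25%, 8.9%, 4.28%, 8.7% and 7.78%). The interaction gave 1 under the study's thresholds. The cause of these moves was not tested, except that without a filter more genes were tested and the median of all genes moved to 0.22 in untreated LSKs and -0.38 for 5-FU in Tespa1-/- LSKs.

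The median log2 difference between untreated genotypes was 0.15 with upper-quartile factors, 0.09 without a filter, with the length correction and with both corrections, and 0.08 without overlapping genes (an alternative added after the data were seen). It was 0.13 after 5-FU between genotypes, 0.05 for 5-FU in Tespa1-/- LSKs and 0.01 for the interaction with upper-quartile factors. With library totals it was 0.12 for 5-FU in Tespa1+/+ LSKs and 0.04 for the interaction, and with the length correction, with or without the block, 0.03 for 5-FU in Tespa1+/+ LSKs. The ratio of summed levels after 5-FU in Tespa1+/+ LSKs was 1.04, and 1.08 with library totals. Mrps30 reversed to -0.01 between genotypes after 5-FU with upper-quartile factors.

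With 1 library left out, the called genes numbered 1 to 3 between genotypes after 5-FU, 0 to 2 in untreated LSKs, 1 to 3 for 5-FU in Tespa1-/- and 0 in Tespa1+/+ LSKs, and 0 for the interaction. Of all genes, 4.63 to 5.59%, 0.46 to 1.61%, 7.38 to 9.0%, 2.07 to 2.9% and 1.75 to 2.43% were higher in these fits. The medians of the 78 genes were 0.15 to 0.22, 0.09 to 0.12, 0.1 to 0.14, 0.04 to 0.08 and 0.04 to 0.11 in that order. The 2 genes in untreated LSKs were Mrpl15 and Mrpl43, without the Tespa1+/+ library 1. Between genotypes after 5-FU the adjusted p was 0.00522 to 0.0681 for Mrpl52, 0.0162 to 0.0845 for Mrpl51 and 0.0481 to 0.101 for Mrpl20. Genes that passed in no fit changed sign there, with ranges of -0.1 to 0.23 for Mrpl48, -1.95 to 0.51 for Mrpl53, -0.03 to 0.22 for Mrps12, -0.02 to 0.28 for Mrpl58, -0.0 to 0.08 for Mrps30 and -0.35 to 0.08 for Mrps6. For 5-FU in Tespa1-/- LSKs the adjusted p was 0.00448 to 0.0775 for Mrps21, 0.0582 to 0.168 for Mrpl55, 0.0203 to 0.115 for Mrps18a and 0.00415 to 0.0847 for Mrpl52.

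The deviations of libraries with the same replicate number from their group means had correlations from -0.074 to 0.0307, so the numbers were not taken to pair the samples. The replicate block changed counts only as given above.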
